A study of Homo sapiens with 4 samples.

Results

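The genes described here are 10 noncoding host genes of small nucleolar RNAs (snoRNAs): GAS5, SNHG1, SNHG5, SNHG6, SNHG8, SNHG12, SNHG15, SNHG16, ZFAS1 and EPB41L4A-AS1. They were taken by name, through their Ensembl gene identifiers in GENCODE v44, from the 63677 genes of the count table, and all 10 were present and passed the filter on low counts. RNA had been sequenced after native immunoprecipitation of nuclear lysates of HCT116, a human colorectal carcinoma cell line. All samples came from cells transfected transiently for 48 h with pcDNA3.1-ORC1-3xFLAG, a plasmid encoding ORC1 with a 3xFLAG tag. The series compared 2 libraries of RNA recovered with the anti-FLAG antibody M2 (ORC1-FLAG IP) with 2 libraries of the nuclear lysate they came from (Input), numbered replicate 1 and 2 in both groups. ORC1 is a subunit of the origin recognition complex, which marks where DNA replication can start. No library of a control antibody or of untransfected cells was among those analysed, so RNA held by the beads was not measured apart from RNA held by ORC1-FLAG, and the tagged protein was overexpressed beside the endogenous one.

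SnoRNAs guide chemical modification of ribosomal and small nuclear RNAs. C/D box snoRNAs direct 2′-O-methylation and H/ACA box snoRNAs direct pseudouridylation. In human cells most are cut from introns of longer host transcripts, and in the genes described here the spliced exons encode no known conserved protein. Many such host transcripts begin with a 5′ terminal oligopyrimidine (5′TOP) tract, a feature of ribosomal protein mRNAs, and several are short-lived because translation of their small open reading frames leads to nonsense-mediated decay. Reads on a host gene therefore come from its exons, from unspliced precursor and from long transcripts that retain snoRNA sequence, which gene-level counts do not separate.

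RefSeq places 36 snoRNA genes inside the 10 hosts, 28 of the C/D family, 7 of the H/ACA family and 1 with no family name. GAS5 holds 11 and SNHG1 holds 9, SNHG12 holds 4, ZFAS1 and SNHG16 hold 3 each and SNHG5 holds 2. SNHG6, SNHG8, SNHG15 and EPB41L4A-AS1 hold 1 each. Start sites could be read from the RefSeq promoter table (GRCh38.p14) for 8 of the hosts. The sequences below run from 15 bases before the RefSeq start base through the first 25 bases of the transcript, 5′ to 3′, with the uninterrupted run of C and T that begins at the start base in capitals. They are shown for the 3 hosts called depleted below (SNHG8, ZFAS1 and SNHG16) and for SNHG5, SNHG1 and SNHG12, which were not called. GAS5 (start base A) and EPB41L4A-AS1 (start base T) also had an entry and were not called, and their sequences are not shown.
SNHG8, chr4:118278747-118278786, plus strand: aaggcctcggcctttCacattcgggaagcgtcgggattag
ZFAS1, chr20:49278627-49278666, plus strand: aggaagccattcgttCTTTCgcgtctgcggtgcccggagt
SNHG16, chr17:76557749-76557788, plus strand: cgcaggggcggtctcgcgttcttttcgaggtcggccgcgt
SNHG5, chr6:85678709-85678748, minus strand: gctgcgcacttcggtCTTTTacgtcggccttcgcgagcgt
SNHG1, chr11:62855861-62855900, minus strand: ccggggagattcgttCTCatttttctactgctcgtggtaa
SNHG12, chr1:28581849-28581888, minus strand: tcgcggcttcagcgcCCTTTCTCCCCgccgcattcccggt
With a start base C followed by at least 4 C or T taken as a 5′TOP-like start, on the transcribed strand only, ZFAS1, SNHG5 and SNHG12 had one. That was 3 of the 8 hosts with an entry, beside 4.07% of all 35116 promoters in the table and 56.3% of 87 entries for cytosolic ribosomal protein genes. Of these 3 hosts, one was called depleted and the others were not. The RefSeq start and the outermost GENCODE start of a gene differed in all 8 but EPB41L4A-AS1, by 1259 bases for SNHG12, 464 for ZFAS1 and 199 for SNHG5, the 3 with such a start, so a match describes the RefSeq start alone.

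Library totals lay between 9213877 and 27483148 counts, and 14645 genes were tested. The smallest member total in any library was 72 counts (EPB41L4A-AS1) and the largest 3468 (SNHG1). Levels are given as library-normalised counts (CPM) after TMM scaling, which sets the libraries against each other by a trimmed mean of log ratios, and are called scaled CPM here. EPCAM, KRT8 and KRT18, markers of epithelial cells, stood between 98.4 and 2055 scaled CPM in the 4 libraries. ORC1 held 5820 and 59163 counts in the 2 Input libraries and 23064 and 326098 in the IP libraries of the same numbers. On scaled CPM, replicate 2 carried 15.2-fold more ORC1 RNA in Input and 16.8-fold more in IP. Its log2 fold change was 1.87 ± 1.42 (edgeR adjusted p = 0.374), and 1.80 ± 0.21 with the replicate number as a block (edgeR adjusted p = 3.16e-06). The plasmid holds a codon-optimised ORC1 cDNA, and gene counts do not separate its reads from those of the endogenous gene.

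All 10 hosts stood at or below their Input level or within error of it, and none was enriched in the ORC1-FLAG IP. SNHG8, ZFAS1 and SNHG16 were depleted, with 30.6%, 38.9% and 39.9% of their Input level. Depleted means a Benjamini-Hochberg adjusted p below 0.05 in edgeR's quasi-likelihood test, adjusted over all genes tested, with a log2 fold change of IP over Input below -1. Over all genes tested, 8.3% were depleted and 10.5% enriched, so 3 depleted and 0 enriched of 10 compares with those shares. Without the minimum on the fold change the depleted hosts were the same 3, beside 9.96% of all genes. At an unadjusted p below 0.05, 0 hosts were higher and 4 lower in IP by edgeR, and the share of all genes at that threshold was not counted. DESeq2 and limma voom also called 0 enriched, and each called 4 depleted. Over all genes, DESeq2 called 1674 enriched and 1168 depleted of 31990 fitted, and limma voom 1542 and 1140 of 14645. With the replicate number as a block, which keeps IP and Input of the same number paired, edgeR called 5 of the 10 depleted, beside 13.4% of all genes. All other calls in this paragraph took group as the only term. The median log2 fold change of the 10 hosts was -0.93, beside 0.01 over all genes tested. That median was -0.45 when IP replicate 1 was left out, -1.24 when IP replicate 2 was, -1.14 when Input replicate 1 was and -0.58 when Input replicate 2 was.

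**Figure D1:**
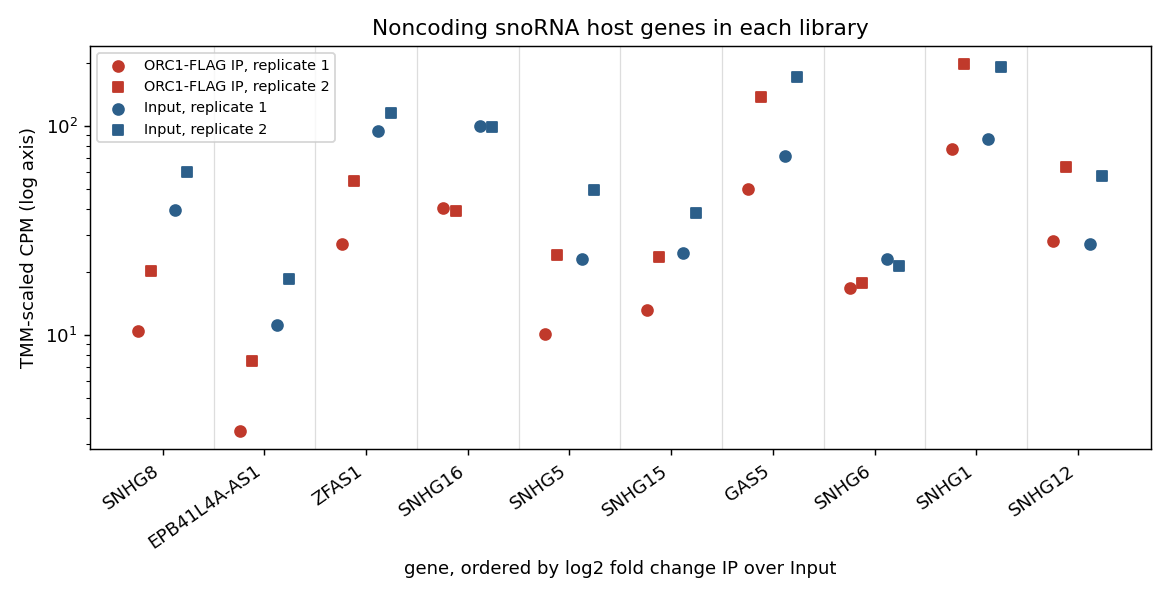
Scaled CPM (log axis) of each host gene in the 4 libraries, with ORC1-FLAG IP in red, Input in blue, circles for replicate 1 and squares for replicate 2. In SNHG8, EPB41L4A-AS1, ZFAS1, SNHG16, SNHG15 and SNHG6 both IP libraries lie below both Input libraries, while in GAS5, SNHG1, SNHG5 and SNHG12 the groups overlap and replicate 2 lies above replicate 1 in both.

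SNHG8 (ENSG00000269893, chr4:118278703-118285316, plus strand, GRCh38) hosts the H/ACA snoRNA SNORA24 and was the most depleted of the 10. It had 10.4 (replicate 1) and 20.1 (replicate 2) scaled CPM in IP and 39.4 and 60.1 in Input, in the order kept for all genes below. Both IP values lay below both Input values, with log2 ratios of -1.88 and -1.56 against the Input of the same number. The edgeR log2 fold change was -1.71 ± 0.37 (SE, 2 IP and 2 Input libraries, adjusted p = 0.0223). Leaving out any one library kept the call, with values from -1.26 to -2.20.

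ZFAS1 (ENSG00000177410, chr20:49278178-49299600, plus strand) carries SNORD12C, SNORD12B and SNORD12 in its introns and was first known as an antisense transcript at the 5′ end of the gene for the zinc finger protein ZNFX1. Its scaled CPM was 27.1 and 54.6 in IP and 94.8 and 115 in Input. The groups did not overlap, but the 2 log2 ratios, -1.79 and -1.07, were the furthest apart of any of the 10 hosts. The log2 fold change was -1.36 ± 0.35 (edgeR adjusted p = 0.0353), and without IP replicate 1 it was -0.89 and the call was lost.

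SNHG16 (ENSG00000163597, chr17:76557727-76670985, plus strand) hosts SNORD1A, SNORD1B and SNORD1C. It was the most even of the hosts across replicates, with 40.4 and 38.9 scaled CPM in IP and 100 and 98.8 in Input. The log2 ratios, -1.30 and -1.33, differed by less than those of any other host. The log2 fold change was -1.33 ± 0.21 (edgeR adjusted p = 0.0122), and the values without any one library lay between -1.25 and -1.48, all of them called.

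EPB41L4A-AS1 (ENSG00000224032, chr5:112160526-112164818, plus strand), the host of the H/ACA snoRNA SNORA13, had the fewest counts of the 10. IP replicates held 3.46 and 7.51 scaled CPM and Input replicates 11.2 and 18.6, with no overlap. The log2 fold change of -1.44 ± 0.43 did not pass the test with group as the only term (edgeR adjusted p = 0.0528). With the replicate number as a block it was -1.49 ± 0.21 and depleted (edgeR adjusted p = 2.23e-05). SNHG5 (ENSG00000203875, chr6:85650491-85678932, minus strand), the host of SNORD50A and SNORD50B, showed the same sensitivity. It had 10.1 and 23.9 scaled CPM in IP and 23.1 and 49.5 in Input, so that IP replicate 2 lay above Input replicate 1, yet both log2 ratios were near -1 (-1.16 and -1.03). Its log2 fold change was -1.09 ± 0.49 (edgeR adjusted p = 0.149), and -1.12 ± 0.17 with the block, which called it depleted (edgeR adjusted p = 3.37e-05). With group as the only term and all 4 libraries, the call of EPB41L4A-AS1 turned on scaling, filter and tool. It was depleted by edgeR with RLE scaling (adjusted p = 0.0484), with library size only and with no count filter. DESeq2 (adjusted p = 0.0225) and limma voom (adjusted p = 0.0482) also called it, and edgeR with upper-quartile scaling did not. SNHG5 was called in these settings with no count filter alone (-1.05, edgeR adjusted p = 0.028). Both calls also turned on single libraries. EPB41L4A-AS1 was at -0.93 and not called when IP replicate 1 was left out, and was called at -2.04, -1.72 and -1.17 when IP replicate 2, Input replicate 1 or Input replicate 2 was. SNHG5 was at -0.54 and -0.59, not called, when IP replicate 1 or Input replicate 2 was left out, and was called at -1.79 and -1.50 when IP replicate 2 or Input replicate 1 was.

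**Figure D2:**
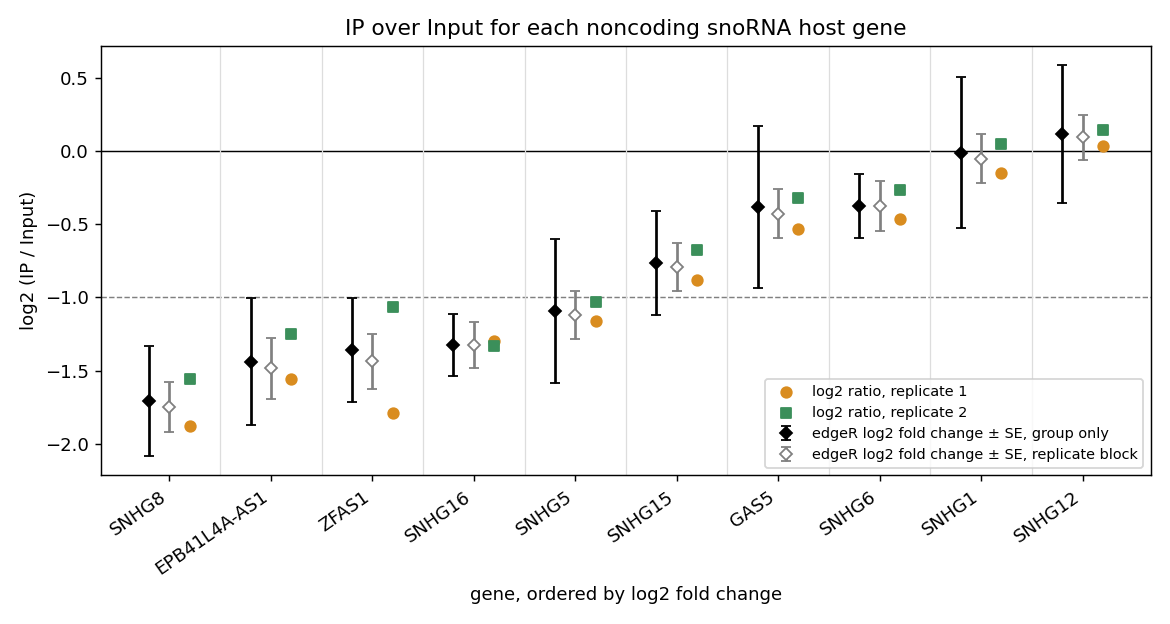
Log2 of IP over Input for each host gene: filled diamonds give the edgeR log2 fold change with its SE with group as the only term, open diamonds the same with the replicate block, and circles and squares the ratios of replicates 1 and 2. The blocked errors are narrower in all 10, and SNHG8, EPB41L4A-AS1, ZFAS1, SNHG16 and SNHG5 lie below the dashed line at -1 in both replicates.

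With the block, 5 of the 10 hosts were depleted and 0 enriched, beside 13.4% of all genes tested in each direction. Log2 ratios below -1 in both replicates were found in the same 5 hosts, SNHG8, EPB41L4A-AS1, ZFAS1, SNHG16 and SNHG5, beside 6.96% of all genes tested. Ratios below 0 in both replicates were found in 8 of 10 hosts, beside 41.7% of genes. They were also found in 740 of 1096 tested long noncoding RNA genes and in 14 of 15 other noncoding snoRNA host genes tested. Ratios below -1 in both replicates were found in 114 of these 1096 genes and in 9 of these 15. Both IP libraries lay below both Input libraries in 6 of 10 hosts, beside 31.9% of genes. An exact permutation test of 2 against 2 libraries cannot go below p = 0.333, so no single-gene permutation test is given.

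The remaining 5 hosts were not called in either fit. SNHG15 (ENSG00000232956, chr7:44983019-44986961, minus strand), the host of SNORA9, had 13.1 and 23.7 scaled CPM in IP and 24.5 and 38.1 in Input, with a log2 fold change of -0.77 ± 0.35 (edgeR adjusted p = 0.159). Its groups did not overlap, and the IP level was 58.8% of Input. SNHG15 was at -0.35 when IP replicate 1 was left out, and was called depleted at -1.20 and -1.01 when IP replicate 2 or Input replicate 1 was. SNHG6 (ENSG00000245910), the host of SNORD87, had 16.7 and 17.7 in IP and 23.1 and 21.4 in Input. Its groups did not overlap either, although the difference was small, with a log2 fold change of -0.37 ± 0.22 (edgeR adjusted p = 0.254).

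GAS5, SNHG1 and SNHG12 hold the most snoRNA genes of the 10, and none of them was called. GAS5 (ENSG00000234741, chr1:173858559-173868882, minus strand) accumulates in growth-arrested cells, from which it takes its name. It had 49.7 and 137 scaled CPM in IP and 71.9 and 172 in Input, overlapping groups with a log2 fold change of -0.38 ± 0.55 (edgeR adjusted p = 0.652). With the block the value was -0.43 ± 0.16 and its adjusted p from edgeR was 0.0378, short of the fold-change minimum. SNHG1 (ENSG00000255717, chr11:62851978-62855953, minus strand) had 77.7 and 197 in IP and 86.4 and 191 in Input, a log2 fold change of -0.01 ± 0.52 (edgeR adjusted p = 0.991). SNHG12 (ENSG00000197989, chr1:28578538-28583132, minus strand) had 28 and 63.5 in IP and 27.3 and 57.2 in Input, and a log2 fold change of 0.12 ± 0.47 (edgeR adjusted p = 0.881). The sign of the last 3 genes was not fixed: without IP replicate 1 the log2 fold changes of GAS5 and SNHG1 were 0.23 and 0.56, and without IP replicate 2 that of SNHG12 was -0.53. In that last setting GAS5 was called depleted at -1.23. SNHG12 was also below 0 with library size alone (-0.46) and with upper-quartile scaling (-0.05).

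Ordered by mean log2 ratio, the hosts ran SNHG8, ZFAS1, EPB41L4A-AS1, SNHG16, SNHG5, SNHG15, GAS5, SNHG6, SNHG1 and SNHG12. The replicate ratios of SNHG8, ZFAS1, EPB41L4A-AS1 and SNHG16 overlapped from each neighbour to the next, as did those of GAS5 with SNHG6 and of SNHG1 with SNHG12. They did not overlap between SNHG16 and SNHG5, SNHG5 and SNHG15, SNHG15 and GAS5, or SNHG6 and SNHG1. The 3 hosts with 4 or more snoRNA genes (GAS5, SNHG1 and SNHG12) had log2 fold changes from -0.38 to 0.12, and none was depleted. The 7 with 1 to 3 snoRNA genes had values from -1.71 to -0.37 with a median of -1.33, and 3 were depleted. That division was made after the values were seen and is a description. Across the 10 hosts, which share the same 4 libraries, Spearman's rho of the log2 fold change was 0.521 with the number of snoRNA genes, -0.612 with exonic length and 0.176 with mean Input scaled CPM. The same rho was 0.521 with the number of exons of the canonical transcript, -0.515 with its length and 0.479 with Input scaled CPM per kilobase.

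Levels in Input were compared between hosts per kilobase of exonic length (the union of all annotated exons in GENCODE v44). The release used for counting is not given, so this may not be the length that reads were counted over. The canonical (main) transcript has 498 of 5776 bases in SNHG16, 768 of 4932 in GAS5 and 1316 of 12604 in SNHG5. In SNHG8 it has 6166 of 6614. The order below therefore holds for the union length alone. SNHG1 was highest at 34.9 scaled CPM per kb, followed by GAS5 at 24.7, SNHG16 at 17.2 and ZFAS1 at 12.6. SNHG12, SNHG6, SNHG15 and SNHG8 lay between 9.91 and 7.52. EPB41L4A-AS1 at 3.46 and SNHG5 at 2.88 were lowest, SNHG5 over an annotated exonic length of 12604 bases, the longest of the 10. In this order the 2 Input replicates of neighbours overlapped except between SNHG16 and ZFAS1 and between SNHG8 and EPB41L4A-AS1.

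Most of the hosts were higher in replicate 2 than in replicate 1, in Input and in IP alike. In Input, GAS5 was 2.38-fold higher in replicate 2 than in replicate 1, SNHG1 2.21-fold, SNHG5 2.14-fold and SNHG12 2.10-fold, on scaled CPM. These 4 of 10 hosts passed a 2-fold difference, beside 10.6% of all genes tested. In IP the same genes were 2.77-, 2.54-, 2.38- and 2.27-fold higher in replicate 2. SNHG16 and SNHG6 stood apart, at 0.988 and 0.925 in Input and 0.963 and 1.06 in IP. The median log2 difference of replicate 2 over replicate 1 in the 10 hosts was 0.67 in Input and 1.01 in IP. The same medians were 0.01 and -0.03 over all genes tested, -0.39 and -0.16 over 84 cytosolic ribosomal protein genes, and 0.50 and 0.35 over 1096 long noncoding RNA (lncRNA) genes. ORC1 RNA was also higher in replicate 2, as given above, and its part in these differences was not tested. The difference between replicates was not tested.

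**Figure D3:**
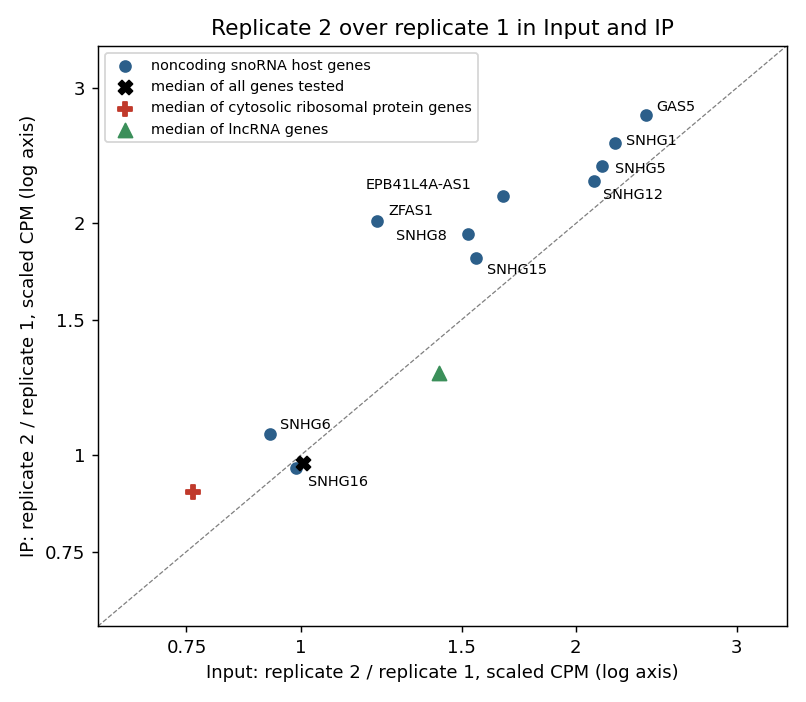
Scaled CPM of replicate 2 divided by replicate 1, in Input (horizontal, log axis) and in IP (vertical, log axis), for each host gene (blue points) and as medians of 3 gene sets, with a dashed line of equal ratios. SNHG6 and SNHG16 lie near the median of all genes tested. The other 8 points lie above 1 on both axes.

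Few of the snoRNA genes inside the hosts had a row of their own. Of the snoRNA genes that GENCODE v44 places inside the hosts, 7 had a row in the count table, SNORD87 among them with 0 counts in every library. The identifiers of the others are absent from the count table, which says nothing of the level of these snoRNAs. GENCODE v44 places 0 snoRNA genes inside GAS5, where RefSeq places 11. SNORD1B, in SNHG16, had 0 and 2 counts in IP and 6 and 4 in Input, and SNORA13, in EPB41L4A-AS1, had 0 and 7 in IP and 5 and 19 in Input, too few to be tested. The 4 tested were SNORD99 in SNHG12 and the trio in ZFAS1, whose sequences are given because these C/D snoRNAs have rows of their own beside that of their depleted host. SNORD12B has 88 of its 91 bases and SNORD12 all 90 of its bases inside annotated ZFAS1 exons, so reads of these snoRNAs and of ZFAS1 may not have been kept apart. The first TGATGA (C box) and the last CTGA (D box) are in capitals, on the transcribed strand.
SNORD12C, chr20:49278940-49279028, plus strand: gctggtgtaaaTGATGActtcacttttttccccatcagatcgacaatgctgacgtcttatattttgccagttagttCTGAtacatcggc
SNORD12B, chr20:49280319-49280409, plus strand: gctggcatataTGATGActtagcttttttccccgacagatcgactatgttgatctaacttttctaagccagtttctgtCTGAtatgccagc
SNORD12, chr20:49280683-49280772, plus strand: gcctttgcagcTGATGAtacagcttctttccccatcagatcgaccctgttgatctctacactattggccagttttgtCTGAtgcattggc
In all 3 the C box match begins at base 12, and the D box match at base 77, 79 and 78 in the order shown. SNORD12C had 17 and 20 counts in IP and 14 and 45 in Input, and a log2 fold change of -1.22 ± 0.79 (edgeR adjusted p = 0.298). SNORD12B had 28 and 38 counts in IP and 24 and 69 in Input (-1.03 ± 0.71, edgeR adjusted p = 0.328), and SNORD12 had 14 and 38 in IP and 16 and 46 in Input (-0.76 ± 0.84, edgeR adjusted p = 0.549). Groups overlapped for each of the trio, and without Input replicate 2 all 3 values were above 0 (0.13, 0.20 and 0.47). Without Input replicate 1, SNORD12C and SNORD12B were called lower in IP, at -1.93 and -1.71 (edgeR adjusted p = 0.0369 and 0.0228). SNORD99 had 11 and 20 counts in IP and 4 and 10 in Input, with a log2 fold change of 0.67 ± 0.85 (edgeR adjusted p = 0.605). None of the 4 was called with all libraries, and no snoRNA was tested against its host.

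ZFAS1 and the gene it starts beside moved in opposite directions. ZNFX1 lies on the opposite strand with its start 248 bases from that of ZFAS1. It had 474 and 575 scaled CPM in IP and 171.5 and 250.3 in Input, with both IP values above both Input values. Its log2 fold change was 1.32 ± 0.29 (edgeR adjusted p = 0.0234, enriched), beside -1.36 for ZFAS1. With library size alone, which shifts the median of all genes by -0.60, ZNFX1 was at 0.72 and no longer called, while ZFAS1 was at -1.94. SLC3A2, which starts 51 bases from SNHG1 on the other strand and encodes the heavy chain of amino acid transporters, had 399.5 and 440.3 scaled CPM in IP and 289.2 and 387.7 in Input. Its log2 fold change was 0.31 ± 0.27 (edgeR adjusted p = 0.431), and -0.29 with library size alone. ZBTB37, whose start is 800 bases from that of GAS5, had 25.2 and 19.0 in IP and 28.9 and 60.1 in Input (log2 fold change -1.01 ± 0.37, edgeR adjusted p = 0.0912), with replicate ratios as far apart as -0.20 and -1.64. ENSG00000267546, beside SNHG16, had between 0 and 6 counts a library and was not tested.

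Several hosts share exonic bases with genes on the opposite strand. The library kit preserves strand, but whether reads were counted by strand is not given in the sources used here, so reads from such stretches cannot be assigned to one gene with certainty. The shared part of the exonic length was 58.9% in SNHG6 (with MCMDC2), 51.2% in EPB41L4A-AS1 (with EPB41L4A), 37.6% in SNHG8 (with PRSS12), 36.4% in ZFAS1, 28.5% in SNHG16 and 7.75% in GAS5. PRSS12 and EPB41L4A were not called in either direction. PRSS12 had a log2 fold change of 0.57 (edgeR adjusted p = 0.130) and EPB41L4A of 0.09 (edgeR adjusted p = 0.879), and EPB41L4A changed sign with library size alone (-0.50). MCMDC2 had at most 12 counts in a library, far below the 250 to 404 of SNHG6, and was not tested. On its own strand SNHG5 shares 13.2% of its exonic length with PKMP3 and ENSG00000271793, which had at most 4 counts in a library. GAS5-AS1, which overlaps GAS5 on the opposite strand, was at -0.92 (edgeR adjusted p = 0.504).

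Other noncoding snoRNA host genes also stood below Input. Of 22 named, 21 were in the table and 15 were tested, and 8 of these were depleted and 0 enriched, with a median log2 fold change of -1.57. By edgeR, 0 were higher in IP at an unadjusted p below 0.05, and DESeq2 and limma voom also called 0 enriched. The 5 depleted genes with the lowest values were SNHG3 (-3.08 ± 0.65), SNHG10 (-2.15 ± 0.48), SNHG29 (-1.99 ± 0.33), SNHG19 (-1.85 ± 0.48) and SNHG9 (-1.64 ± 0.33), with edgeR adjusted p between 0.0127 and 0.0357. SNHG3 had 16.0 and 50.2 scaled CPM in IP against 157 and 404 in Input, a wider gap than in any of the 10 hosts. With the block 12 of the 15 were depleted, beside 13.4% of all genes tested. Their median was -1.20 without IP replicate 1.

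Among tested lncRNA genes, 74 of 1096 were depleted (6.75%) and 3 enriched, with a median of -0.71. The count of depleted genes was 356 with the block, 213 with library size alone, 201 with no count filter and 47 with limma voom. Over all genes the same 4 settings gave 1957, 3257, 1614 and 1140, of 14645 genes tested or, with no count filter, 31990. The 3 enriched became 21 with the block, 8 with no count filter and 0 with library size alone, and from 1 (IP replicate 1 left out) to 11 (Input replicate 2 left out). The median ran from -1.31 (IP replicate 2 left out) to -0.43 (Input replicate 2 left out). Protein-coding genes that carry a snoRNA gene on their own strand were different in sign: of 213 tested, 47 were enriched and 21 depleted, with a median of 0.34, and -0.27 with library size alone, where the median of all genes was -0.59 and the counts were 14 enriched and 45 depleted. Cytosolic ribosomal protein genes had 32 depleted and 9 enriched of 84 tested, and a median of -0.55. The count of 9 enriched became 1 when IP replicate 1 or Input replicate 2 was left out, and 14 when Input replicate 1 was. The 28 ribosomal protein genes that are also snoRNA hosts had 12 depleted and 4 enriched with a median of -0.60, and the other 185 protein-coding hosts had 9 depleted and 43 enriched with a median of 0.40. These lists are described by their counts, and no test compared them with the 10 hosts.

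**Figure D4:**
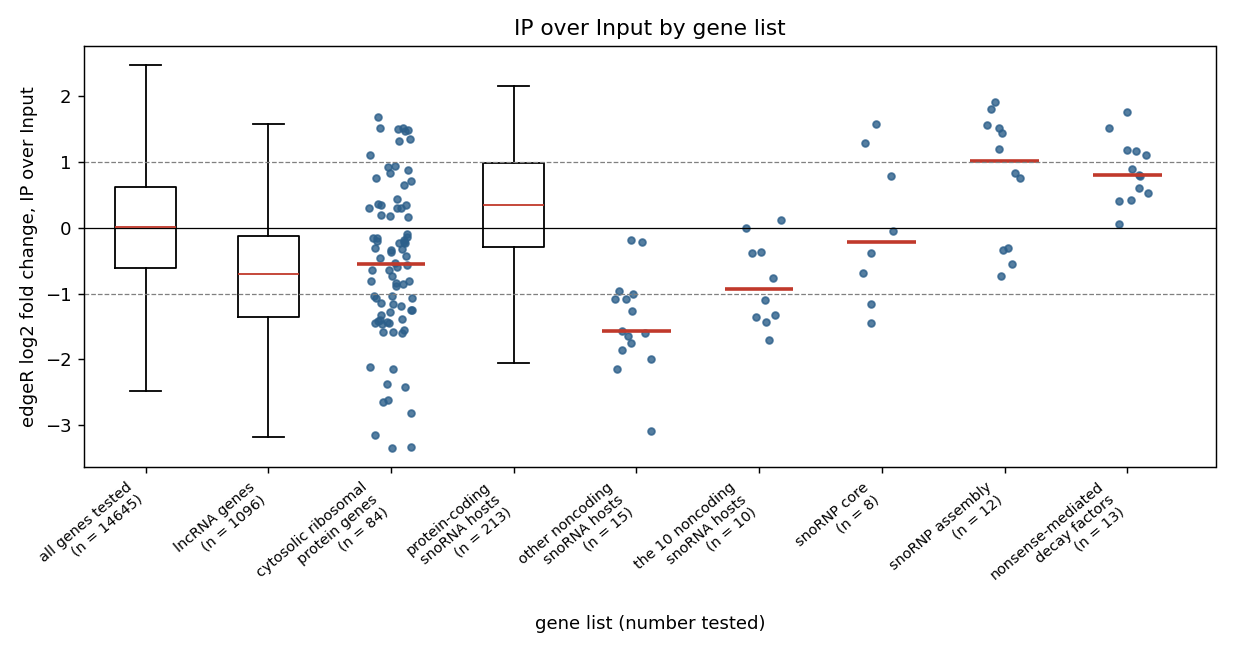
EdgeR log2 fold change of IP over Input by gene list, as boxes (median in red, quartiles, whiskers to 1.5 times the interquartile range, outliers not drawn) for lists above 100 genes and as single genes with the median in red for the others, with dashed lines at -1 and 1. The 10 hosts lie between -1.71 and 0.12 with a median of -0.93, between the other noncoding hosts (-1.57) and all genes tested (0.01).

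Transcripts for proteins that assemble snoRNPs, the particles of a snoRNA and its proteins, included enriched genes, and those for the core proteins of the particles included both kinds. Of 12 tested assembly and maturation factors, 6 were enriched and 0 depleted, with a median of 1.01, and 2 were lower in IP at an unadjusted p below 0.05 by edgeR. DESeq2 and limma voom also called 6 enriched and 0 depleted. EXOSC10 (a nuclear exosome nuclease, 1.91), RPAP3 (a subunit of the R2TP chaperone complex, 1.80), RUVBL1 (its ATPase, 1.56), TGS1 (the trimethylguanosine cap synthase, 1.5) and NUFIP1 (a C/D snoRNP assembly factor, 1.44) had the largest log2 fold changes, with edgeR adjusted p between 0.0128 and 0.0297. With library size alone 1 of the 12 was enriched and 2 were depleted, beside 380 and 3257 of all 14645 genes tested. Among the 8 core proteins, NOP56 of the C/D particle was enriched (1.57 ± 0.29, edgeR adjusted p = 0.015), and SNU13 (-1.45, edgeR adjusted p = 0.0158) and GAR1 of the H/ACA particle (-1.16, edgeR adjusted p = 0.0243) were depleted. With the replicate block, by DESeq2 and by limma voom, 2 of the 8 were enriched and 2 depleted. The median of the 8 was -0.22, and 0.12 without Input replicate 1, where 3 were enriched. With library size alone 0 of the 8 were enriched and 3 depleted, and without IP replicate 2 the counts were 2 and 1.

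Of 13 tested nonsense-mediated decay factors, 5 were enriched and 0 depleted, with a median of 0.80. UPF2 (1.75), SMG1 (1.51), UPF1 (1.18), SMG6 (1.17) and MAGOH (1.10) were the 5, with edgeR adjusted p between 0.0142 and 0.0285. By edgeR, 0 were lower in IP at an unadjusted p below 0.05, and DESeq2 and limma voom also called 5 enriched and 0 depleted. With library size alone the count enriched was 1, and with upper-quartile scaling 3, beside 380 and 1080 of all 14645 genes tested.

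The repeat GAAGAAGAA was looked for in the longest GENCODE v44 transcript of each gene, on the transcribed strand. GAA repeats were a motif the study reported in RNAs bound by ORC1, though it stated that ORC1 does not bind through them. At its UV crosslink sites the study reported the snoRNA C box motif, which was not looked for in the host transcripts here. The exact repeat counted here is not the motif model of the study. GAAGAAGAA was present in 0 of the 10 hosts, beside 13.6% of 14265 tested genes with a transcript and 4.2% of tested lncRNA genes. The shorter GAAGAA, which the longer one contains, was present in 6 of the 10, beside 11643 of the 14265 tested genes and 717 of the 1096 tested lncRNA genes, and GAS5 had 4 matches. The median GC content of these transcripts was 43.7% in the hosts, from 39.0% in SNHG8 to 56.6% in SNHG12, and 48.2% over all tested genes.

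The genes outside the 10 whose 4 library values were most like the mean profile of the hosts, by Euclidean distance of centred log2 scaled CPM over the 4 libraries, were HILPDA (0.0822), PGPEP1 (0.103) and GLIPR1 (0.104). All 3 are protein-coding, their log2 fold changes were -0.81, -0.86 and -0.99, and none was called.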

How the data were processed

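RNA of 2 ORC1-FLAG IP and 2 Input libraries of HCT116 nuclei was measured with a stranded, ribosomal-RNA-depleted kit. The authors deposited raw counts of reads for each gene, which had not been normalized. Per the submitters' processing notes and the study's methods, Trimmomatic was used for trimming, STAR for alignment to hg19 and featureCounts for counting. The annotation release, the strandedness of counting and the handling of reads with several alignments are not given in the sources used here. Groups came from the labels, which give each IP and its Input the same RIP replicate number.

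Gene models, lengths and coordinates follow GENCODE v44 (GRCh38), a later build than that of the counts, joined by Ensembl identifier. Of the 63677 genes, 11496 had no match, 380 of them among the 14645 tested. Sequences came from the RefSeq promoter table (GRCh38.p14) and the GENCODE transcripts.

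IP was compared with Input by edgeR 4.0.16 in R 4.3.3, using TMM scaling, filterByExpr, robust glmQLFit and glmQLFTest with group as the only term, and Benjamini-Hochberg adjustment over all genes tested. The SE is the log2 fold change divided by the root of F. A gene was called where its adjusted p was below 0.05 and its log2 fold change exceeded 1 in size. For log2 ratios per replicate, 0.5 was added to each TMM-scaled CPM value. The code was tested on simulated data. Deviations from the group means of same-numbered libraries correlated across genes (Pearson r = 0.645), and the labels give them the same RIP number. IP and Input were therefore taken as paired by number for the ratios and the blocked fit. The main fit has group as its only term, because the study's methods name no block, and so leaves this pairing out. The blocked fit is given where it changes the call of a named gene, and as counts for some lists. The labels do not say that the replicates were separate cultures, so p-values measure the spread between these 2 and 2 libraries. Reads carry no molecular identifiers, and values are relative to the rest of each library, since no spike-in was described. For the same reason a lower scaled CPM does not separate less RNA of a gene from more RNA of others.

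The named genes were ORC1, the 10 hosts, snoRNA genes inside them with a row, genes with an opposite-strand start within 1000 bases, up to 5 called genes a list by size of fold change, and the 3 genes most alike. Genes whose exons overlap those of a host were named after their values were seen, and some of them are not reported here. The members, lists and tests were chosen with earlier results of these data known. The alternatives tried were scaling by RLE, by library size only or by upper quartile, no count filter, a filter of 1 CPM in 2 libraries, DESeq2 1.42.0, limma voom (limma 3.58.1), the replicate block, no fold-change minimum, a pseudocount of 2, and leaving out each library.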

Additional observations from a re-analysis of the deposited data

How the results depend on the processing

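Leaving out 1 library at a time gave 2 to 7 depleted hosts of 10 and a median log2 fold change from -1.24 to -0.447, and SNHG8 and SNHG16 were depleted each time. The number of depleted hosts was 5 with library size only, with no count filter and with the replicate block, beside 3 in the fit without the block. Over all genes, no count filter gave 1614 depleted of 31990, beside 1215 of 14645 in the main fit. The median of the hosts was -1.51 with library size only and -1.09 with upper-quartile scaling. With library size only the replicate medians were -1.65 and -1.39, and 380 genes of the whole table were enriched and 3257 depleted. The replicate block called 1957 genes depleted and, among the named genes, also ORC1 (1.80) enriched and GLIPR1 (-1.05) depleted, beside EPB41L4A-AS1 and SNHG5. No host was enriched in any of these fits. Among the named genes, none called with group as the only term and all 4 libraries changed sign, and the other called genes were not followed. With 1 library left out, the log2 fold change ran from -1.23 to 0.238 for GAS5, -0.775 to 0.565 for SNHG1, -0.533 to 0.642 for SNHG12, -0.0048 to 1.68 for SNORD99, -1.93 to 0.133 for SNORD12C, -1.71 to 0.200 for SNORD12B, -1.76 to 0.474 for SNORD12, -1.72 to 0.958 for GAS5-AS1, -0.207 to 0.429 for EPB41L4A and -1.22 to 4.75 for ORC1, and the snoRNP core median from -0.617 to 0.118. With library size only SNHG12 was at -0.465, SLC3A2 at -0.292, PRSS12 at -0.0394, EPB41L4A at -0.496 and the median of protein-coding snoRNA hosts at -0.266. With upper-quartile scaling SNHG12 was at -0.048 and EPB41L4A at -0.0714, and SNHG1 was at 0.034 with no count filter and at 0.0337 with DESeq2. The causes were not tested. The lowest count of a host in any library was 72, and each group had 2 libraries, so leaving 1 out assumes that the lone library varies like the other group.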
